A study of Mus musculus with 16 samples.

Results

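The KEAP1-NRF2 regulators and partner factors are 10 genes, chosen by symbol: Keap1 (ENSMUSG00000003308), Cul3 (ENSMUSG00000004364), Rbx1 (ENSMUSG00000022400), Sqstm1 (ENSMUSG00000015837), Nfe2l2 (ENSMUSG00000015839), Nfe2l1 (ENSMUSG00000038615), Mafg (ENSMUSG00000051510), Maff (ENSMUSG00000042622), Mafk (ENSMUSG00000018143) and Bach1 (ENSMUSG00000025612). All 10 were found among the 18209 genes with an identifier in the deposited table, and all 10 were among the 15781 genes kept by the filter on low values, which asked for 10 or more normalized reads in 4 or more libraries. Liver RNA of 16 mice, all labelled male, at 20 days of age was sequenced, 4 mice in each of 4 genotypes. All 16 mice carried floxed alleles of Trsp, the gene of the selenocysteine tRNA. Trsp fl/fl mice, without Cre, are called control here. Trsp fl/fl::AlbCre mice, in which Cre under the albumin promoter deletes Trsp in hepatocytes, are called Trsp knockout. The genotype Keap1 C226S&C613S homo::Trsp fl/fl, homozygous for a KEAP1 with Cys226 and Cys613 replaced by serine and without Cre, is called KEAP1 mutant. The genotype Keap1 C226S&C613S homo::Trsp fl/fl::AlbCre, which combines both changes, is called compound mutant. The deletion is limited to cells that express the Cre, while the KEAP1 substitutions are present in every cell, and whole liver was measured. In such bulk samples, fewer cells of a type and less RNA per cell cannot be told apart.

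KEAP1 is the substrate adaptor of a CUL3 ubiquitin ligase with the ring protein RBX1, and this ligase marks the transcription factor NRF2, encoded by Nfe2l2, for degradation by the proteasome. When cysteine residues of KEAP1 are modified, or when the autophagy receptor p62, encoded by Sqstm1, competes for KEAP1, NRF2 escapes and enters the nucleus. There it pairs with a small MAF protein (MAFG, MAFF or MAFK) on antioxidant response elements, which the repressor BACH1 also occupies with the same partners, while the related factor NRF1, encoded by Nfe2l1, controls proteasome genes. The system is controlled mainly at the level of protein, so the mRNA levels below describe the supply of its parts and not their activity.

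The codons that the mutation alters are shown first, since they define the genotype. In the reference transcript of Keap1 (GENCODE M21, GRCm38, minus strand of chromosome 9), which has 624 codons and 25 cysteine codons among them, the codon changed by C226S lies in exon 3 at chr9:21234035-21234037 and the codon changed by C613S in exon 6 at chr9:21230738-21230740. Capitals mark the reference cysteine codon in its coding context.
Keap1 C226S codon: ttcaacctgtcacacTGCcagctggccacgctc
Keap1 C613S codon: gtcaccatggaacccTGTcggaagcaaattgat

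The RefSeq promoter windows of the 10 genes (GRCm38.p6, 250 bases before to 50 after each start) were searched on both strands for TGACNNNGC, the core of the antioxidant response element. The 10 genes have 16 such windows, and the core stood in 4 of them, against 12.4% of all 32851 windows. These belonged to Nfe2l2, the NRF2 gene itself, and to all 3 small MAF genes, for Maff in 1 of its 3 windows. The matches are shown with their surroundings up to the start site, read along the strand of the gene, with the core in capitals. In Mafk and Mafg the core lies on the opposite strand.
Nfe2l2, chr2:75704879-75704913, minus strand: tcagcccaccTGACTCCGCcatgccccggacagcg
Mafk, chr5:139791507-139791535, plus strand: acgcgcgatcccggaaGCGGTGTCAgtac
Mafg, chr11:120633745-120633785, minus strand: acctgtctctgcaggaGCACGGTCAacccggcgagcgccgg
Maff, chr15:79346493-79346533, plus strand: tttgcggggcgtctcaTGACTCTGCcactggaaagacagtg

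Sqstm1 and Bach1, the members whose mRNA changed (below), had no match to the core in their windows. Sequence outside the windows was not searched. The 250 bases upstream of their starts are given because both genes moved with the Trsp knockout, with the GC box GGGCGG or its reverse complement in capitals. The GC box was found in 11 of the 16 windows, which belonged to 9 of the 10 genes (all but Mafg), and in 35.7% of all windows. The sequence TGANTCA, the core shared by AP-1 and MAF recognition elements, was in 0 of the 16 windows and in 7.81% of all windows. The cAMP response element TGACGTCA was in 1 window, of Maff, and in 1.79% of all windows. TGACNNNGC can overlap TGANTCA. A match is a description of the letters and not of a bound site.
Sqstm1, chr11:50210821-50211070, minus strand: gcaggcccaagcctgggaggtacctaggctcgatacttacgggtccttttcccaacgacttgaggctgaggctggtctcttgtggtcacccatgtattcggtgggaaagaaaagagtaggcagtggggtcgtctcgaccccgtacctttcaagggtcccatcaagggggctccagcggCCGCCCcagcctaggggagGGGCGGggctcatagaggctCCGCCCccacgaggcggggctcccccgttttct
Bach1, chr16:87698704-87698953, plus strand: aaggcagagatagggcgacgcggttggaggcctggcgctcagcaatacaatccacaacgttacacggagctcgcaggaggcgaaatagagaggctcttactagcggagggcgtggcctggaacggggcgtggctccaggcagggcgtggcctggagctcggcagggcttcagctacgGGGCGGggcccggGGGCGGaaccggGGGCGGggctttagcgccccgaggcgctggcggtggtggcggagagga

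The libraries held 11386712 to 19164141 reads, and the 10 genes had between 53 and 6567 reads in a library. The selenoprotein genes Gpx1 and Selenow, whose mRNA is known to depend on selenoprotein synthesis, fell in both knockout comparisons (limma, adjusted p between 6.2e-05 and 9.1e-04), as the AlbCre labels say. The point substitutions in Keap1 cannot be checked with counts per gene. All 10 hepatocyte markers listed passed the filter on low values and none passed the test in a pairwise comparison; for the cell types named below no marker in the table was at 0 in every library. Replicate 1 of the compound mutant stood apart: it had 28799 Xist reads against 22 to 50 in the other 15 libraries although all mice are labelled male, its summed hepatocyte markers were 909143 normalized counts against 1270406 to 1827177 in the other 3 compound mutants, and its summed erythroid markers were 96822 against 15678 to 24826. For the comparisons that include this library, the values of Sqstm1, Bach1 and the NRF2 target, list and marker genes named as changed are also given without it, a choice made after the data were seen. Values below are the deposited log2(normalized count + 4), each difference is a log2 fold change from limma with its standard error (SE) and 95% confidence interval (CI), and "changed" is used at a Benjamini-Hochberg adjusted p under 0.05 over all genes tested. The labels do not say which mice were littermates. Each p-value sets a difference of means against the spread between mice, estimated jointly over the 4 genotypes, and treats the mice as independent.

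**Figure D1:**
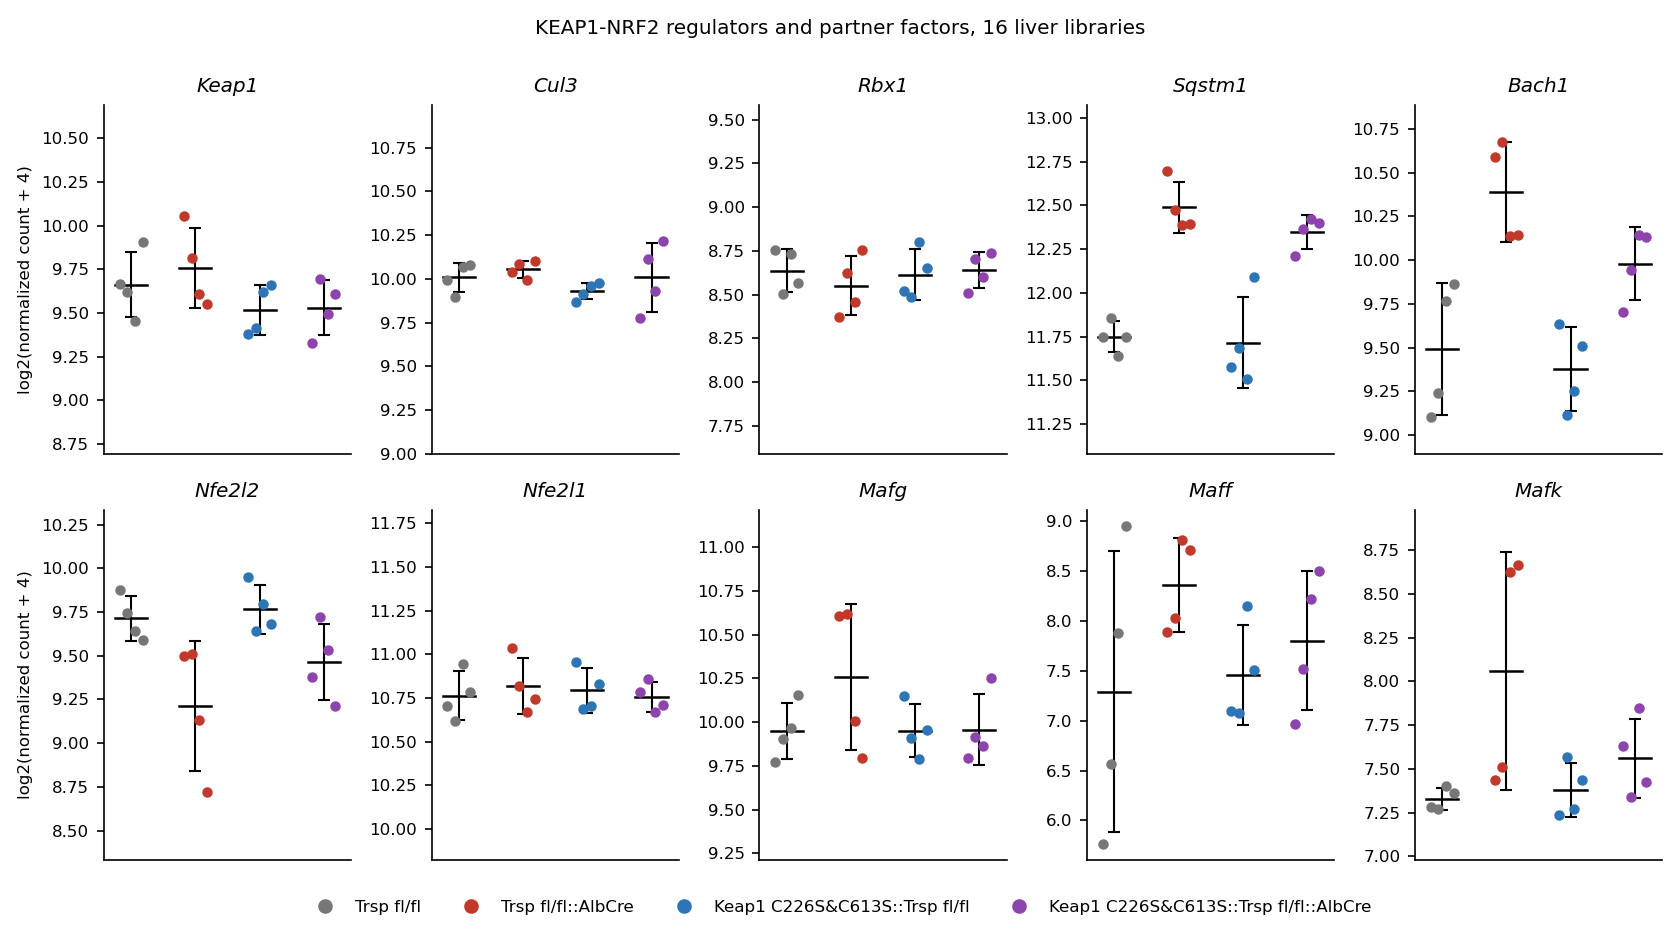
Deposited log2(normalized count + 4) of the 10 genes in 16 liver libraries, one point per mouse in replicate order from left to right, with the mean (bar) and SD (whiskers, n = 4) of each genotype; axes do not start at 0 and Maff has a wider range than the rest. Sqstm1 was above 12.2 in all 8 livers with AlbCre and below 12.1 in all 8 without, while Cul3, Rbx1 and Nfe2l1 lay at like levels in the 4 genotypes.

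Per transcript length, Sqstm1 was the most abundant of the 10 and Mafk the least. With the longest principal transcript of GENCODE M21 as length and reads scaled for both length and library depth (RPKM), Sqstm1 averaged 146 ± 40.3 RPKM (SD, n = 16 libraries), Nfe2l1 25.2 ± 2.46 and Nfe2l2 20.3 ± 3.91. Rbx1, Keap1, Cul3 and Mafg followed with means between 14.2 and 15.4, and their neighbours in that order differed by less than the SD. Bach1 averaged 10.7 ± 3.71, Maff 8.19 ± 4.30 and Mafk 4.24 ± 1.68, and the gaps from Mafg to Bach1, from Bach1 to Maff and from Maff to Mafk were also below the larger SD. The place of Bach1 differed by genotype. In control livers Bach1 was at 8.14 ± 2.08 and Nfe2l2 at 22.003 ± 1.98 (n = 4), whereas in Trsp knockout livers Bach1 was at 15.02 ± 3.20 and Nfe2l2 at 15.9 ± 4.11 on the same scale, a gap below the SD.

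The comparison of Trsp knockout with control livers asks how the mRNA supply of the NRF2 system stands when hepatocytes cannot make selenoproteins and KEAP1 is normal. Sqstm1 and Bach1 rose. Nfe2l2 was lower and Mafk higher in every knockout liver than in every control liver, but neither passed the test. Thus 2 of the 10 genes were higher at an adjusted p under 0.05, against 0.444% of all genes tested, and none was lower, against 0.114%. No member reached the thresholds of the study (absolute log2 fold change over 1 and adjusted p under 0.01), which 0.215% of all genes did in this fit. At these thresholds the study, with its own analysis in iDEP, reported more genes for this comparison. The groups did not overlap for 4 of the 10, against 6.01% of all genes. The median log2 fold change of the 10 was 0.20, beside -0.015 for all genes.

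Sqstm1 encodes p62, which carries cargo to autophagosomes and binds KEAP1. Its values were 11.75, 11.86, 11.64 and 11.75 in control livers and 12.70, 12.48, 12.39 and 12.39 in Trsp knockout livers. The groups lay far apart relative to their spread, the lowest knockout value being more than 0.5 above the highest control value. The log2 fold change was 0.74 (SE 0.12, CI 0.48 to 0.999, adjusted p = 0.0077 by limma), a 1.67-fold higher level. Sqstm1 remained past the threshold in all 25 alternative fits of this comparison, with adjusted p-values between 0.0011 and 0.032.

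Bach1 encodes the heme-binding repressor that competes with NRF2 at antioxidant response elements. Its values were 9.10, 9.24, 9.77 and 9.86 in control livers and 10.59, 10.68, 10.14 and 10.15 in Trsp knockout livers. Control livers split into a lower and a higher pair and so did knockout livers, yet the groups did not overlap. The log2 fold change was 0.89 (SE 0.19, CI 0.50 to 1.29, adjusted p = 0.042 by limma), a 1.86-fold higher level. This call was near the threshold: it held in 14 and was lost in 11 of 25 alternative fits, among them the fit of the compared groups alone (adjusted p = 0.18) and those without control replicate 1 (0.15) or 2 (0.15), Trsp knockout replicate 1 (0.13) or 2 (0.13), KEAP1 mutant replicate 3 (0.059) or 4 (0.056), or compound mutant replicate 2 (0.064) or 3 (0.055). Summed erythroid markers, 14 of 14 in the table, lay at 14943 to 35339 normalized counts in knockout and 34256 to 64959 in control livers, with 11 of the 12 tested negative and Sptb, a red cell membrane protein, past the test (-1.62, adjusted p = 0.0084). Markers below 0 were also 6 of 6 tested for megakaryocytes (median -0.75), 7 of 7 for neutrophils (-0.60) and 8 of 8 for stellate cells and fibroblasts (-0.26). Endothelial markers were above 0 in 5 of 7 (0.062), and hepatocyte markers in 4 of 10 (-0.043). No marker of these further types passed the test. The part of all these cell types in the changes of Sqstm1 and Bach1 was not tested.

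Nfe2l2, which encodes NRF2, had the opposite sign. Its values were 9.88, 9.74, 9.64 and 9.59 in control livers and 9.50, 9.51, 9.13 and 8.72 in Trsp knockout livers. All 4 knockout values were below all 4 control values, with replicates 3 and 4 of the knockout the lowest. The difference was -0.50 on the log2 scale (SE 0.16, CI -0.84 to -0.16, unadjusted p = 0.0064, adjusted p = 0.23 by limma), which did not pass. In these same livers the NRF2 target genes Nqo1 and Srxn1 rose by 2.27 and 1.42 and Gstm1 by 1.96 on the log2 scale, and Gclc, at 1.13, had an adjusted p of 0.062. The study, with its own analysis, lists Gclc among the genes that rose.

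The small MAF genes encode the shared partners of NRF2 and BACH1. Maff varied widely among mice of every genotype, while Mafk and Mafg did so mainly in Trsp knockout livers (SD 0.68 and 0.42). Mafk was at 7.28, 7.27, 7.40 and 7.36 in control livers and at 7.44, 7.51, 8.63 and 8.67 in Trsp knockout livers. Replicates 3 and 4 of the knockout were thus more than 1 above replicates 1 and 2, which lay just above the controls. For Mafk the log2 fold change was 0.73 (SE 0.24, CI 0.22 to 1.25, adjusted p = 0.24). Mafg showed the opposite split, at 10.61 and 10.62 in knockout replicates 1 and 2 and 10.01 and 9.80 in replicates 3 and 4, against 9.77 to 10.16 in controls. Its log2 fold change was 0.31 (SE 0.17, adjusted p = 0.54). Maff, a stress-inducible member, ranged from 5.77 to 8.96 in control livers alone and from 7.89 to 8.81 in knockout livers. Its log2 fold change of 1.07 had a CI of -0.070 to 2.21 (adjusted p = 0.49), which reaches from no change to a 4.63-fold rise. In each of the 4 genotypes, Maff was higher in replicates 3 and 4 than in replicates 1 and 2. Its log2 fold change moved with single libraries: it was 0.56 without control replicate 1 and 1.62 without control replicate 4 (adjusted p = 0.84 and 0.13 by limma). That of Mafg was 0.19 without either of the knockout replicates 1 and 2.

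The ligase genes and Nfe2l1 lay close together in both groups. Knockout and control differed by 0.096 for Keap1 (CI -0.18 to 0.37), 0.045 for Cul3 (CI -0.15 to 0.24), -0.086 for Rbx1 (CI -0.32 to 0.15) and 0.056 for Nfe2l1 (CI -0.16 to 0.27). The groups overlapped for all 4 genes. The upper ends of these intervals allow a rise of 1.29-fold for Keap1 and of 1.21-fold or less for the other 3. Their lower ends allow a fall to 0.80 of the control level for Rbx1 and to no less than 0.88 for the other genes. They leave no room for changes of the size seen for Sqstm1.

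**Figure D2:**
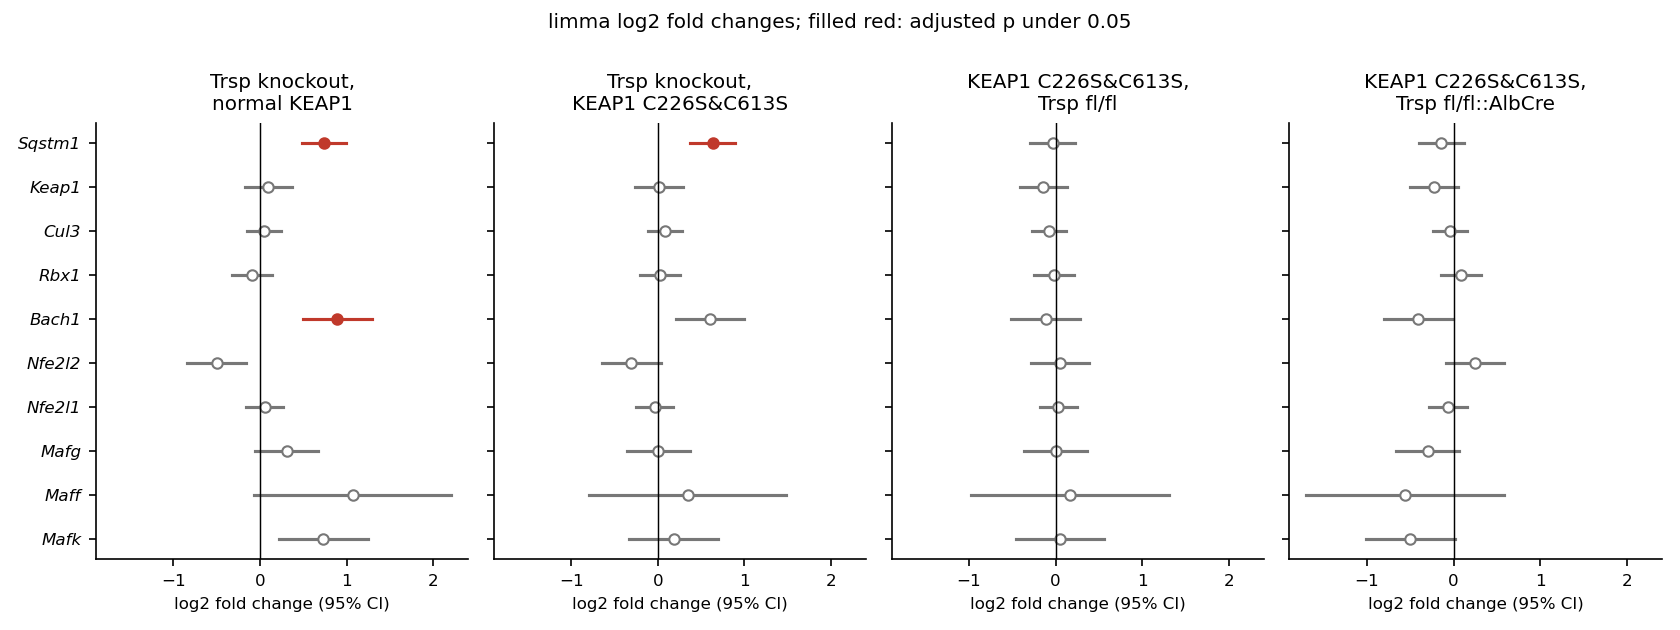
Log2 fold change (circle) and 95% CI (line) of each gene in the 4 pairwise comparisons, from limma; filled red circles have an adjusted p under 0.05 and the vertical line marks no difference. Sqstm1 (0.74 and 0.63) and, with normal KEAP1, Bach1 (0.89) passed in the Trsp knockout comparisons, and no gene passed in the 2 comparisons of KEAP1 mutant with normal KEAP1.

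The comparison of compound mutant with KEAP1 mutant livers puts the same question where KEAP1 lacks Cys226 and Cys613. Sqstm1 rose here too, by 0.63 on the log2 scale. Bach1 was higher in every compound mutant liver but did not pass. Of the 10 genes, 1 was higher at an adjusted p under 0.05, against 0.38% of all genes higher and 0.798% changed in either direction, and the groups did not overlap for 2, against 7.69%. None was lower, against 0.418% of all genes, and none reached the thresholds of the study, against 0.171%. The median log2 fold change of the 10 was 0.05, beside -0.0049 for all genes.

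Sqstm1 was at 11.58, 11.68, 11.51 and 12.09 in KEAP1 mutant livers and at 12.21, 12.37, 12.42 and 12.40 in compound mutant livers. Replicate 4 of the KEAP1 mutant was high, yet below every compound mutant. This was a log2 fold change of 0.63 (SE 0.12, CI 0.38 to 0.89, adjusted p = 0.023 by limma), a 1.55-fold higher level. Without compound mutant replicate 1, the library that stood apart, it was 0.68 (adjusted p = 0.034). It passed in 18 of 25 alternative fits, and was lost in 7, including the fit of the compared groups alone (adjusted p = 0.10) and those without KEAP1 mutant replicate 1 (0.090), 2 (0.084) or 3 (0.087) or compound mutant replicate 2 (0.056) or 3 (0.075). Hepatocyte markers moved in the same comparison: their sums were 909143 to 1827177 normalized counts in compound mutant and 1926737 to 2273941 in KEAP1 mutant livers, without overlap, against 1639858 to 2040501 in control and 1710209 to 1988223 in Trsp knockout livers. Of the 10 hepatocyte markers 9 were below 0, at a median of -0.38 on the log2 scale. An unadjusted p under 0.05 marked 2 of them, against 13.6% of all genes. Kupffer cell and macrophage markers were below 0 in 8 of 8 (median -0.58) and T and NK cell markers in 4 of 4 tested (-0.71). Erythroid markers were above 0 in 10 of 12 tested (0.45). No marker of these types passed the test. The part of these cell types in the values of this comparison was not tested.

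Bach1 was at 9.64, 9.11, 9.25 and 9.51 in KEAP1 mutant livers and at 9.70, 9.94, 10.15 and 10.13 in compound mutant livers. The groups did not overlap, by a margin of less than 0.1. Its log2 fold change of 0.60 (SE 0.19, CI 0.21 to 1.0002) had an adjusted p of 0.16, and adjusted p-values of 0.051 to 0.38 over the 25 alternative fits, of which none passed. Without compound mutant replicate 1 it was 0.70 (adjusted p = 0.18).

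Nfe2l2 was at 9.95, 9.64, 9.79 and 9.68 in KEAP1 mutant livers and at 9.38, 9.72, 9.53 and 9.21 in compound mutant livers, and the groups overlapped through compound mutant replicate 2. The log2 fold change was -0.30 (CI -0.64 to 0.033, adjusted p = 0.43), and -0.28 without compound mutant replicate 1. Mafk, at 7.24 to 7.57 in KEAP1 mutant and 7.34 to 7.85 in compound mutant livers, had a log2 fold change of 0.18 (CI -0.33 to 0.70), and no compound mutant liver reached the 8.63 and 8.67 of Trsp knockout replicates 3 and 4. For Maff the log2 fold change was 0.35 (CI -0.80 to 1.49), or 0.62 without compound mutant replicate 1 and 0.11 to 0.62 over all fits without a library, and for Mafg 0.0061 (CI -0.36 to 0.37). Keap1 (0.013), Cul3 (0.078), Rbx1 (0.025) and Nfe2l1 (-0.038) again lay within 0.1 of no difference, with intervals from -0.26 to 0.29.

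Whether the knockout effect itself depended on the KEAP1 cysteines was tested as the difference of these effects. None of the 10 passed (limma, 0 also at an unadjusted p under 0.05 and 0 by limma voom on the recovered reads), against 0.0951% of all genes at the adjusted and 10.8% at the unadjusted threshold. For Sqstm1 the difference was -0.11 (CI -0.47 to 0.26, adjusted p = 0.84), so the interval leaves room for a knockout effect that is smaller by up to 0.47 or larger by up to 0.26 in mutant KEAP1. Its sign turned under quantile normalization (0.21) and under scaling by library totals (0.026). For Bach1 the difference was -0.29 (CI -0.85 to 0.27, adjusted p = 0.69), for Nfe2l2 0.20 (CI -0.28 to 0.67) and for Mafk -0.55 (CI -1.28 to 0.18). Maff (-0.73, CI -2.34 to 0.89) and Mafg (-0.30, CI -0.82 to 0.21) had the same sign as Mafk. The value of Maff ranged from -0.22 without control replicate 1 to -1.28 without control replicate 4, and that of Mafk was -0.36 and -0.35 without Trsp knockout replicate 3 or 4. With compound mutant replicate 1 left out, the difference was -0.059 for Sqstm1 (adjusted p = 0.94), -0.20 for Bach1 (0.85) and -0.45 for Maff (0.88). Of the markers, 11 of the 12 erythroid genes tested had a difference above 0, with a median of 1.90, and 9 of the 10 hepatocyte genes one below 0, with a median of -0.50. Their part in these differences was not tested. On the same scale the NRF2 target Nqo1 had a difference of -1.14 (CI -1.76 to -0.52, adjusted p = 0.24) and Gstm1 of -1.78 (CI -2.66 to -0.89, adjusted p = 0.20), with knockout effects in mutant KEAP1 of 1.13 for Nqo1, 0.74 for Srxn1, 0.18 for Gstm1 and -0.0017 for Gclc, of which Nqo1 and Srxn1 passed. These effects were, without compound mutant replicate 1, 1.07 for Nqo1 (adjusted p = 0.060), 0.64 for Srxn1 (0.034), 0.47 for Gstm1 and 0.20 for Gclc.

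The knockout effect was also averaged over both KEAP1 backgrounds, a contrast chosen after the data were seen. Sqstm1 rose by 0.69 on the log2 scale (SE 0.086, CI 0.50 to 0.87, adjusted p = 3.8e-04 by limma), and all 8 livers with AlbCre were above all 8 without. Bach1 rose by 0.75 (SE 0.13, CI 0.47 to 1.03, adjusted p = 0.0084), with 7 of the 8 livers above all 8 without AlbCre and the exception being compound mutant replicate 1. Without compound mutant replicate 1 these rises were 0.71 (adjusted p = 5.1e-04) and 0.79 (adjusted p = 0.0080), and both passed in all 24 alternative fits of this average. The share of all genes that were higher was 0.919%, and of all genes that were lower 0.741%. Nfe2l2, at -0.40 (CI -0.64 to -0.16, adjusted p = 0.088), did not pass, with 7 of 8 livers with AlbCre below all 8 without and compound mutant replicate 2 the exception. Mafk was at 0.46 (CI 0.095 to 0.82, adjusted p = 0.23). Nfe2l2 was at -0.39 (adjusted p = 0.14) and Mafk at 0.45 (0.30) without compound mutant replicate 1. The erythroid gene Sptb also passed in this average (-1.18, adjusted p = 0.0043, and -1.25 and 0.0038 without that library). The 12 erythroid markers tested had a median of -0.19, with 11 below 0. Of these 12, 2 had an unadjusted p under 0.05, against 13.8% of all genes. With mutant KEAP1 alone, 10 of the 12 were above 0, at a median of 0.45, while Sptb was at -0.75.

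The opposite signs of Bach1 and Nfe2l2 were also read within each library, where scaling between libraries cancels. The log2 value of Bach1 minus that of Nfe2l2 was -0.77, -0.50, 0.12 and 0.27 in control livers and 1.09, 1.17, 1.006 and 1.43 in Trsp knockout livers. It was -0.31, -0.53, -0.54 and -0.17 in KEAP1 mutant livers and 0.32, 0.22, 0.61 and 0.92 in compound mutant livers. Every liver with AlbCre was thus above every liver without it of the same KEAP1, and the Trsp knockout livers (1.17 ± 0.18, SD, n = 4) were all above the compound mutants (0.52 ± 0.32). This difference was formed after its parts were seen and is given without a test.

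**Figure D3:**
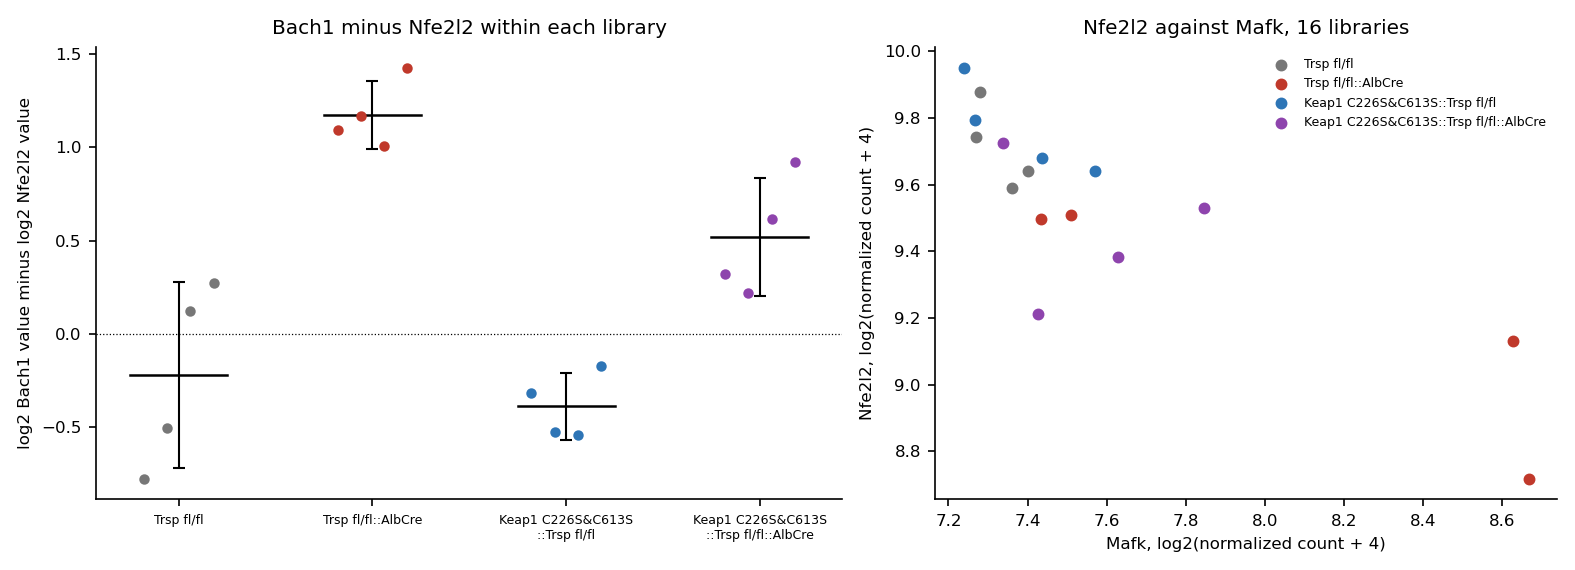
Left, the log2 value of Bach1 minus that of Nfe2l2 in each library by genotype, with mean (bar) and SD (whiskers, n = 4); the level of 0 depends on transcript length and marks no balance. Right, Nfe2l2 against Mafk, both as log2(normalized count + 4), one point per library: Trsp knockout replicates 3 and 4 lie apart, with Mafk at 8.63 and 8.67 and Nfe2l2 at 9.13 and 8.72.

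The KEAP1 mutant was compared with normal KEAP1 in livers without AlbCre, which asks whether the substitutions alone shift the mRNA of the system. None of the 10 genes passed (limma, 0 also at an unadjusted p under 0.05 and 0 by limma voom), against 0.0887% of all genes at the adjusted and 9.07% at the unadjusted threshold, and no gene had groups that did not overlap, against 6.23% of all genes. Keap1 itself was at 9.67, 9.62, 9.45 and 9.90 in control and 9.38, 9.42, 9.62 and 9.66 in KEAP1 mutant livers, a log2 fold change of -0.14 (CI -0.42 to 0.13). Keap1 mRNA in KEAP1 mutant livers thus overlapped that of the controls. Mutant and normal KEAP1 differed by 0.053 for Nfe2l2 (CI -0.28 to 0.39), -0.033 for Sqstm1 (CI -0.29 to 0.23) and -0.12 for Bach1 (CI -0.51 to 0.28), and the 10 genes spanned -0.14 to 0.17. In the same livers the NRF2 target Nqo1 fell by 1.82 (adjusted p = 0.0015), while Gstm1 (-1.48, adjusted p = 0.084), Srxn1 (-0.59, 0.12) and Gclc (-0.077, 0.96) did not pass. The study, with its own analysis, names Gstm1 beside Nqo1 among the genes that fell. Summed B cell markers, 5 of 7 in the table without Vpreb1 and Igll1, were 161 to 322 normalized counts in KEAP1 mutant and 59 to 114 in control livers, with 5 of 5 log2 fold changes above 0 and a median of 1.49. Summed erythroid markers were lower without overlap, at 13146 to 25748 normalized counts against 34256 to 64959 in control livers. Of the 12 tested, 11 were below 0, with a median of -0.92, and 5 had an unadjusted p under 0.05, against 9.07% of all genes. Summed neutrophil markers, 7 of 8 in the table without Ly6g, were 515 to 1866 against 253 to 1360, with 7 of 7 above 0 and a median of 1.06. The part of these cell types in the values of this comparison was not tested.

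In livers with AlbCre, compound mutant against Trsp knockout, again none of the 10 passed (limma, 1 at an unadjusted p under 0.05 and 0 by limma voom), against 2.07% of all genes at the adjusted and 17.6% at the unadjusted threshold, and the groups of all 10 overlapped, while 8.61% of all genes did not overlap. Bach1 was the gene with the unadjusted call, at -0.41 (CI -0.80 to -0.0092, adjusted p = 0.27), and at -0.31 (adjusted p = 0.53) without compound mutant replicate 1. Mafk was at -0.50 (CI -1.01 to 0.013), and at -0.31 and -0.30 without Trsp knockout replicate 3 or 4. Maff was at -0.56 (CI -1.70 to 0.58), and at -0.28 without compound mutant replicate 1, Mafg at -0.30 (CI -0.66 to 0.064) and Nfe2l2 at 0.25 (CI -0.089 to 0.59). Keap1 was at -0.23 (CI -0.50 to 0.047) and Sqstm1 at -0.14 (CI -0.40 to 0.12), and the sign of Sqstm1 turned under quantile normalization (0.14). When compound mutant replicate 1 was left out, Sqstm1 was at -0.092 (adjusted p = 0.80) and Mafk at -0.52. Nqo1, Srxn1, Gclc and Gstm1 all fell in the same comparison, with log2 fold changes of -2.96, -1.27, -1.21 and -3.26. That of Gclc was -1.01 (adjusted p = 0.074) without compound mutant replicate 1, while the other 3 still passed. Summed neutrophil markers were 722 to 2403 normalized counts in compound mutant and 228 to 420 in Trsp knockout livers, with 7 of 7 above 0 and a median of 2.05, and S100a8, a neutrophil protein, passed the test (2.05, adjusted p = 0.034, and 0.089 without compound mutant replicate 1). Summed B cell markers were 110 to 273 against 43 to 87, with 5 of 5 above 0 and a median of 1.40, and Pax5, a B cell transcription factor, passed (1.44, adjusted p = 0.029, and 0.044 without that library). Megakaryocyte markers, at 193 to 359 against 101 to 149, had 6 of 6 tested above 0 and a median of 1.03. Of these 6, 4 had an unadjusted p under 0.05, against 17.6% of all genes. Erythroid markers had 11 of 12 above 0 with a median of 0.59, and hepatocyte markers 8 of 10 below 0 with a median of -0.38. The part of these cell types in the values of this comparison was not tested.

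Over the 4 genotypes, the order of the means separated beyond the spread only for Sqstm1, Bach1 and Nfe2l2. For Sqstm1 it was Trsp knockout, compound mutant, control and KEAP1 mutant, and only the gap of 0.60 between compound mutant and control exceeded the larger SD of the neighbours. For Bach1 the order was the same, with gaps of 0.41 and 0.49 above the larger SD and one of 0.12 between control and KEAP1 mutant below it. For Nfe2l2 the order ran from KEAP1 mutant over control and compound mutant down to Trsp knockout, with a gap of 0.25 between control and compound mutant above the larger SD. For the other 7 genes no gap between neighbours exceeded the larger SD. The median SD within a genotype was lowest for Cul3 at 0.067 and highest for Maff at 0.60.

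Genes around the 10 were followed in lists chosen by function. A set of 7 lists had no gene past the test in any of the 4 pairwise comparisons: the cycle of the KEAP1-CUL3 ligase (neddylation and COP9 signalosome, 22 tested of 23), other KEAP1 binders and KEAP1 enzymes (19 of 19), the KEAP1-independent control of NRF2 such as GSK3 and beta-TrCP (22 of 22), further CNC, BACH and MAF factors (5 of 7), coactivators and corepressors of NRF2 (19 of 19), enzymes that process NRF1 (16 of 16) and the autophagy partners of p62 (24 of 24). Together they held 121 genes tested, of which limma called 0 and an unadjusted p under 0.05 marked 21 and 20 in the knockout comparisons with normal and mutant KEAP1, against 11.0% and 13.6% of all genes, and 8 and 18 in the KEAP1 comparisons without and with AlbCre, against 9.07% and 17.6%. In the knockout comparison with normal KEAP1 their medians were -0.055, 0.051, 0.015, -0.18, -0.0072, 0.028 and 0.18 in the order above. The autophagy partners had 20 of 24 log2 fold changes above 0 there and 14 of 24 with mutant KEAP1. In the averaged knockout effect, Map1lc3b, the membrane-bound LC3 to which p62 binds, rose by 0.47 (SE 0.11, adjusted p = 0.047), a call that was lost without compound mutant replicate 1 (0.48, adjusted p = 0.065).

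The list of genes known to be repressed by BACH1, most of which NRF2 also activates, had members that changed. In Trsp knockout against control livers, 3 of the 7 tested of 8 rose, against 0.444% of all genes, with a list median of 0.63 beside -0.015 for all genes. Slc48a1, a heme transporter, rose by 1.18 (SE 0.15, adjusted p = 5.0e-04), Ftl1, the ferritin light chain, by 0.88 (SE 0.17, adjusted p = 0.022) and Fth1, the ferritin heavy chain, by 0.56 (SE 0.11, adjusted p = 0.025). Ferritin genes have near-identical pseudogenes that can share reads, so their values are uncertain to that extent. With mutant KEAP1 the median was 0.28 and 1 of the 7 passed, against 0.38% of all genes higher. This was Me1, the NADPH-producing malic enzyme, at 1.88 (SE 0.42, adjusted p = 0.049), and the call was lost without compound mutant replicate 1 (1.86, adjusted p = 0.12). With normal KEAP1, Me1 was at 1.38 (adjusted p = 0.20), and the difference of both effects was 0.49 (adjusted p = 0.77), so the effects were not shown to differ. Of the 7 genes, 7 were above 0 with normal and 6 with mutant KEAP1, where Slc40a1 was at -0.44 (adjusted p = 0.26 by limma). Hmox1 did not pass with normal (0.63, adjusted p = 0.65) or mutant KEAP1 (1.09, adjusted p = 0.32). The lower hepatocyte markers of the compound mutant stand beside these values, and their part was not tested. In livers with AlbCre, 3 of the 7 were lower with mutant KEAP1, against 2.07% of all genes changed in either direction. These were Ftl1 (-1.05), Slc48a1 (-0.90) and Fth1 (-0.56), with adjusted p-values of 0.0032, 0.0039 and 0.013, and the list median was -0.56. All 3 passed without compound mutant replicate 1 (-1.0013, -0.93 and -0.54). Without AlbCre none of the 7 passed (3 at an unadjusted p under 0.05, against 9.07% of all genes), with a median of -0.24. The difference of the knockout effects passed for none of the 7 (3 at an unadjusted p under 0.05, against 10.8% of all genes). In the averaged knockout effect 4 of the 7 rose, against 0.919% of all genes. Without compound mutant replicate 1 this count was also 4, against 1.52% of all genes changed.

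The proteasome genes, which NRF1 is known to control, were all 34 tested. With normal KEAP1 the knockout left none past the test (3 at an unadjusted p under 0.05, against 11.0% of all genes), with 32 of 34 above 0 and a median of 0.12. With mutant KEAP1 the median was 0.30, 32 of 34 were above 0, and Adrm1, a ubiquitin receptor of the proteasome (0.81), Psmc2, a subunit of its ATPase ring (0.55), and Psmb4, a core subunit (0.42), rose with adjusted p-values of 0.020, 0.018 and 0.034. An unadjusted p under 0.05 marked 25 of the 34, against 13.6% of all genes. Without compound mutant replicate 1 the median was 0.30 and 21 of 34 had an unadjusted p under 0.05, against 10.6% of all genes. In that fit Adrm1 (0.85) and Psmc2 (0.56) passed with adjusted p-values of 0.038 and 0.046, while Psmb4 (0.40, adjusted p = 0.093) did not. These rises stand beside the lower hepatocyte markers of the compound mutant, whose part was not tested. In livers with AlbCre, Psmb5, a catalytic subunit, was lower with mutant KEAP1 (-0.60, SE 0.11, adjusted p = 0.0092, and -0.62 and 0.023 without compound mutant replicate 1), while 24 of 34 were above 0 and 4 of 34 had an unadjusted p under 0.05, against 17.6% of all genes. Without AlbCre, 31 of 34 were below 0 with a median of -0.13 and none past the test (1 at an unadjusted p under 0.05, against 9.07% of all genes). The difference of the knockout effects passed for none of the 34 (9 at an unadjusted p under 0.05, against 10.8% of all genes), with a median of 0.20. In the averaged knockout effect 4 of the 34 rose, against 0.919% of all genes, 22 had an unadjusted p under 0.05, against 13.8%, and all 34 were above 0. Without compound mutant replicate 1 the average left 2 of the 34 past the test, against 1.52% of all genes.

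**Figure D4:**
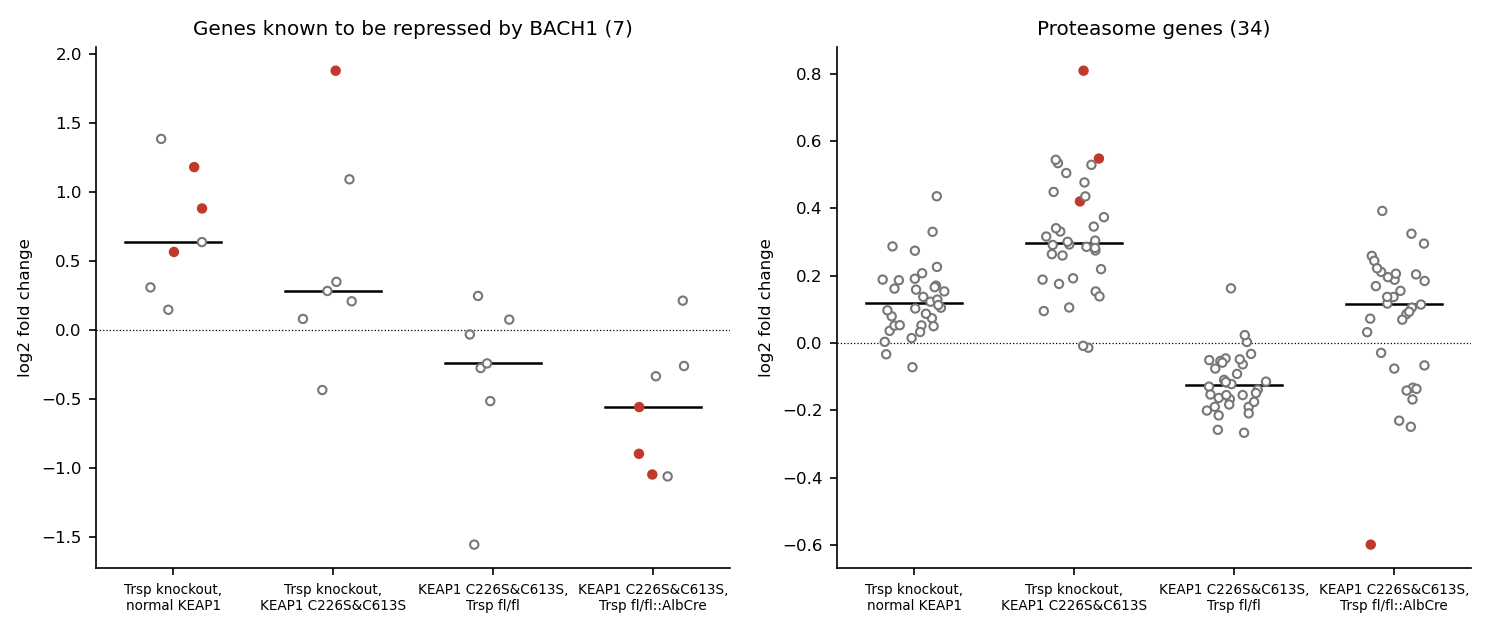
Log2 fold changes of single genes (circles, spread sideways for legibility) in the 4 pairwise comparisons, for genes known to be repressed by BACH1 (left, 7 genes) and for proteasome genes (right, 34 genes); filled red circles have an adjusted p under 0.05 by limma and bars are medians. The medians of the BACH1-repressed genes were 0.63, 0.28, -0.24 and -0.56 and those of the proteasome genes 0.12, 0.30, -0.13 and 0.12.

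The genes most like each member over the 16 libraries were taken as the 3 with the highest Pearson r of log2 values among all genes tested. The libraries share the genotype differences above, so these are descriptions over 16 points and carry no test. Sqstm1 was most like Zwint (r = 0.90), Arhgef5 and Ikbkg. Bach1 was most like Gsta2, a glutathione transferase (r = 0.90), Hbs1l and Slc18a1. Nfe2l2 was most like Ccnt1, Med22 and Zfp235, with r between 0.91 and 0.94. For Mafk, the likeness to Zfp655, Hps1 and Mapkapk2 (r between 0.92 and 0.94) was over libraries in which Trsp knockout replicates 3 and 4 lie apart, and the Spearman rho of Mapkapk2 was 0.52. Mafg was most like Zbtb44, Ahcy and Gm15725 (r between 0.90 and 0.94) and Maff like Gm43605, Gm43314 and Nr1d2 (r between 0.87 and 0.89). Cul3 was most like Serpina1b, Tm6sf2 and Dazap1 (r between 0.86 and 0.94), Keap1 like Vps11, Grsf1 and Sbds (r between 0.85 and 0.87), Rbx1 like Entr1, Cask and Supv3l1 (r between 0.75 and 0.83) and Nfe2l1 like Ntf3, Arl8b and Oplah (r between 0.78 and 0.82). No member was among the 3 nearest genes of another.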

How the data were processed

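Liver RNA was depleted of rRNA and sequenced from directional libraries. The authors quantified transcripts with Salmon on mouse GENCODE transcripts and worked in iDEP. As deposited, each value is the log2 of a size-factor-scaled count plus 4, as tested on the table: reversing this gave whole reads (within 0.05 of a read) for 100% of low values. Rows without a gene identifier (369 of 18578, 0.274% to 0.627% of reads) were left out. Groups came from the sample labels.

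limma 3.58.1 (R 4.3.3; lmFit, contrasts, eBayes with trend) was run on the deposited values of all 16 libraries with a mean per genotype, and p-values were adjusted over 15781 genes. Fold changes on this scale understate changes of low genes. All 10 genes are named in every comparison; of each list, at most 4 genes past an adjusted p of 0.05 are named. The 10 genes and the lists were chosen with earlier results of these data known, so no list or pattern is independent support. On simulated data of the comparison with normal KEAP1 over 15781 genes, 87 of 100 changes of 1.5 and 9 of 100 of 0.7 (log2) were called, none in the wrong direction. The simulated spread between mice was set and not estimated from these data.

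Alternatives were other pseudocounts (0.5 and 1), no filter, quantile normalization, library totals, limma voom on recovered reads, the compared groups alone, no trend, a replicate block, each library left out and the thresholds of the study. The averaged knockout effect, and the values of list and marker genes without compound mutant replicate 1, were added after the data were seen. Promoter sequences are from RefSeq (GRCm38.p6), and all 10 genes matched by symbol. The 10 genes had 53 to 6567 reads per library. Python 3.11.15 with pandas 2.3.3 and matplotlib 3.10.9 served for tables and plots.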

Additional observations from a re-analysis of the deposited data

How the results depend on the processing

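The rise of Sqstm1 in Trsp knockout against control livers passed in all 25 alternatives, and the averaged rises of Sqstm1 and Bach1 in all 24, with adjusted p-values by limma of 3.3e-05 to 0.0022 and 0.0031 to 0.028. The call of Bach1 with normal KEAP1 and that of Sqstm1 with mutant KEAP1 lay near the threshold and were lost in 11 and 7 of 25. Of the 10 genes, 2 passed with normal KEAP1, and this became 1 with only the compared groups, 1 without the trend, 1 with the replicate block and 0 by the thresholds of the study; it was 1 to 2 when single libraries were left out. With mutant KEAP1 the count of 1 became 0 with only the compared groups, 0 with the replicate block and 0 by the thresholds of the study, and 0 to 1 without single libraries. For the averaged effect, 2 became 0 by the thresholds of the study. The comparisons of KEAP1 mutant with normal KEAP1 and the difference of effects had 0 calls in every alternative. The cause of these shifts was not tested, except that fewer libraries enter the fits of the compared groups and those without a library.

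The labels do not say whether the replicate numbers pair the mice. Of 24 correlations between same-numbered libraries, taken on deviations from the genotype means, 4 exceeded 0.1, with a range of -0.32 to 0.31. Their median was -0.037, beside 0.0092 for libraries of different number. Such correlations cannot exclude a shared litter or batch. Maff was higher in replicates 3 and 4 than in replicates 1 and 2 of all 4 genotypes, and the reason was not tested. With the numbers as a replicate block, the adjusted p was 0.098 for Bach1 with normal KEAP1 and 0.053 for Sqstm1 with mutant KEAP1.

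Signs turned only for differences far from the threshold. Under quantile normalization, the knockout effect was -0.00081 for Cul3 with normal KEAP1 and 0.057 for Nfe2l1 with mutant KEAP1, the effect of mutant KEAP1 was -0.011 for Mafg without AlbCre and 0.034 for Cul3, 0.14 for Sqstm1 and 0.086 for Nfe2l1 with AlbCre, and the difference of knockout effects was 0.21 for Sqstm1 and 0.057 for Nfe2l1. Scaling by library totals moved the median of all genes by 0.12 for the knockout effect with mutant KEAP1, by 0.13 for the effect of mutant KEAP1 with AlbCre and by 0.13 for the difference. It gave 0.092 for Nfe2l1 in the knockout effect with mutant KEAP1, -0.0011 for Mafg without AlbCre, 0.082 for Cul3 and 0.065 for Nfe2l1 with AlbCre, and differences of 0.048 for Keap1, 0.026 for Sqstm1 and 0.038 for Nfe2l1.

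Leaving out single libraries gave, for the knockout effect with normal KEAP1, -0.0034 to 0.18 for Keap1 and -0.016 to 0.12 for Nfe2l1, and with mutant KEAP1 -0.041 to 0.081 for Keap1, -0.019 to 0.087 for Rbx1, -0.073 to 0.017 for Nfe2l1 and -0.093 to 0.072 for Mafg. For mutant KEAP1 without AlbCre it gave -0.085 to 0.021 for Rbx1, -0.16 to 0.036 for Sqstm1, -0.0084 to 0.11 for Nfe2l2, -0.024 to 0.092 for Nfe2l1, -0.064 to 0.071 for Mafg, -0.34 to 0.72 for Maff, -0.013 to 0.097 for Mafk and -0.25 to 0.0081 for Bach1. With AlbCre it gave -0.11 to 0.032 for Cul3 and -0.11 to 0.0097 for Nfe2l1. For the difference of effects it gave -0.16 to 0.017 for Keap1, -0.036 to 0.11 for Cul3 and -0.18 to 0.020 for Sqstm1. None of these passed the test. Of the genes outside the 10 that were fitted again without compound mutant replicate 1, the sign of Gclc turned in the knockout effect with mutant KEAP1 (-0.0017, then 0.20). A missed threshold alone does not show that a gene did not change. In simulated data 9 of 100 changes of 0.7 on the log2 scale were called. The spread between mice was set in the simulation and not estimated from these data, so that share is not the chance of a call for the 10 genes. Their median SD within a genotype ran from 0.067 for Cul3 to 0.60 for Maff. For Keap1, Cul3, Rbx1 and Nfe2l1, the CIs of the knockout effect with normal KEAP1 lay between -0.32 and 0.37.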
